A study of Drosophila melanogaster with 12 samples.

Results

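The comparison of erythritol-fed with control flies at 96 h is described here. It rests on 6 of the 12 libraries of the study, 3 of flies kept for 96 h on medium with erythritol (T96h) and 3 of flies kept for the same time on normal medium (CK96h), and takes in every gene of the count table. Erythritol is a sugar alcohol used as a sweetener. Newly emerged Drosophila melanogaster were reared on these media and whole bodies were sequenced from pools of flies, so every tissue, and any egg inside a female, gave RNA to the same library. The labels give no genotype, strain or sex of the flies, and the text of the study states no sex ratio of the pools. The other 6 libraries, of control (CK72h) and erythritol-fed flies (T72h) at 72 h, entered the same fit and are used only to show where the 96 h comparison differs. Of 17707 genes in the table, 13179 had enough counts to be tested. The eggshell genes (chorion and vitelline membrane) and the maltases are set aside, since they have been described for these flies, and the other gene groups are given.

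A fly on a sugar alcohol takes it up through the gut, whose cells secrete proteases, lysozymes and glycosidases into the lumen and carry enzymes that oxidise and conjugate foreign compounds. Cytochrome P450s, glutathione S-transferases and UDP-glycosyltransferases are the main families of that detoxification. The fat body makes lipoproteins, yolk and immune peptides, and in females the ovary takes up much of what it makes. Male accessory glands and testes each express genes found in no other tissue, so a whole-fly library also measures how much of each organ the pool holds. Fewer cells of a type and less RNA per cell cannot be told apart in such samples.

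The 6 libraries of 96 h held 19855575 to 23327826 counts, and transcripts of the mitochondrial genome took 7.29% to 9.87% of them in CK96h and 9.14% to 11.1% in T96h. Values are read counts scaled to a common library size (CPM) after scaling by TMM, a factor that equalises the bulk of genes between libraries, and levels are not corrected for gene length, so they are compared between groups and not between genes. A gene counts as called where its adjusted p is under 0.05 and its log2 fold change is 1.5 or more in size. By these criteria 523 genes (3.97% of those tested) were higher in T96h and 942 (7.15%) were lower. Without the fold criterion 5053 genes (38.3%) were higher and 5424 (41.2%) lower, and the 3 libraries of one group did not overlap the 3 of the other in 10651 genes (80.8%). Replicates lay so close together that small differences passed the test, and the counts of called genes are read first for that reason. The median log2 fold change over all genes was -0.02. Permuting 3 libraries against 3 gives exact p-values of 0.1 or more for 1 gene, so the adjusted p of each gene rests on the spread shared across genes.

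**Figure D1:**
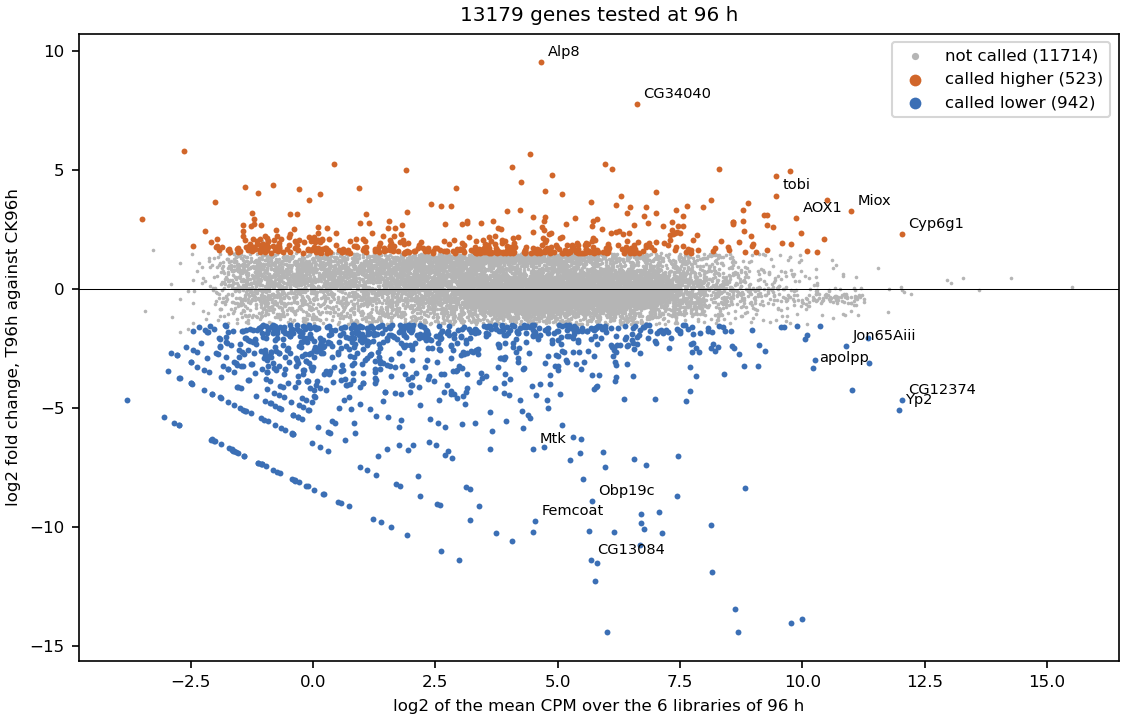
Log2 fold change at 96 h (vertical axis) against the log2 of the mean CPM over the 6 libraries (horizontal axis), 1 point per gene tested. The 523 genes called higher are orange, the 942 called lower are blue, and the straight diagonal rows of blue points at low CPM are genes with no count in T96h or only a few.

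Of the 10 largest gains in CPM outside the maltases, 4 were of genes for enzymes that oxidise small molecules, Cyp6g1, Miox, AOX1 and Aldh, and the other 6 were of other or unknown function. Cyp6g1, a cytochrome P450 known for insecticide resistance, stood at 1463, 1456 and 1343 CPM in CK96h and 7007, 7044 and 6960.2 CPM in T96h. It was the largest gain of any called gene, with a fold of 2.302 on the log2 scale (SE 0.0505, adjusted p = 6.98e-23). Miox encodes myo-inositol oxygenase, which opens the ring of the cyclic sugar alcohol inositol. Its transcripts were at 396, 385 and 372 CPM in CK96h and 3711, 3712 and 3750.2 CPM in T96h, groups that lay far apart (log2 fold change 3.28, SE 0.0443, adjusted p = 3.01e-27). AOX1, an aldehyde oxidase gene, rose from 214 ± 11.6 to 1674 ± 29.9 CPM (log2 fold change 2.97, adjusted p = 5.22e-26), and Aldh, a mitochondrial aldehyde dehydrogenase gene, rose from 643 ± 23.1 to 1881 ± 8.401 CPM (log2 fold change 1.55, adjusted p = 6.11e-21). Xrp1, a stress-induced bZIP transcription factor gene, was at 328, 323 and 338 CPM in CK96h and 1683, 1691 and 1655 CPM in T96h, with no overlap (log2 fold change 2.35, adjusted p = 3.12e-25). Mur18B, a mucin-related gene, rose from 529 ± 10.6 to 2265 ± 23.2 CPM (log2 fold change 2.097). tobi, a glycosidase gene that responds to insulin and to dietary protein and sugar, was at 91.1, 86.7 and 86.8 CPM in CK96h and 1344, 1330.4 and 1306 CPM in T96h (log2 fold change 3.91, adjusted p = 2.4e-28). CG15784, FBgn0034711 and FBgn0038762 completed the 10 largest gains. Together these 10 genes gained 19964 CPM between the group means, against 51264 CPM over all called genes that were higher, with the maltases left out of both sums.

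**Figure D2:**
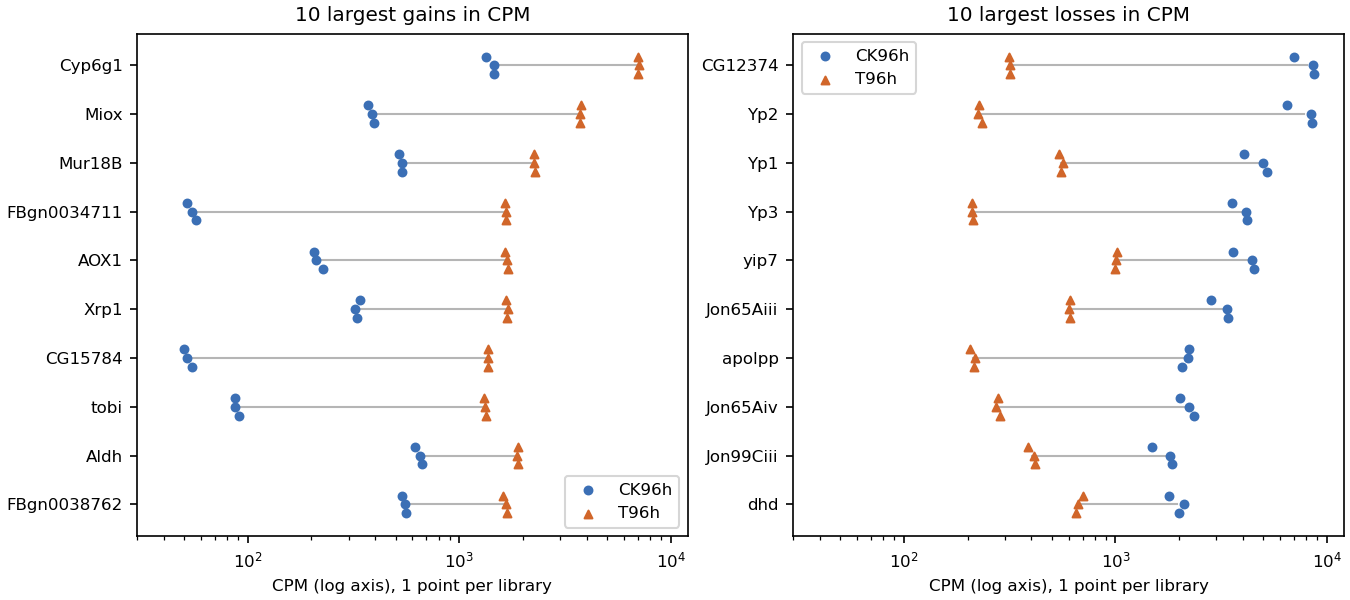
CPM of the called genes with the 10 largest gains (left) and the 10 largest losses (right) between the group means, on a logarithmic axis, with 1 point per library and a grey line between the group means. In each of the 20 genes the 3 CK96h libraries (blue circles) and the 3 T96h libraries (orange triangles) lie apart, and among the losses 1 control library, replicate 3, is often the lowest of the controls.

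The 15 largest rises by fold took in tobi, CG15784 and FBgn0034711 again, beside 12 other genes of several families. Alp8, an alkaline phosphatase gene, was at 0.0497, 0.101 and 0.0432 CPM in CK96h and 50.4, 50.2 and 51.5 CPM in T96h. The erythritol libraries were close to each other and the control libraries close to 0, which gave 9.51 on the log2 scale (adjusted p = 5.65e-25). CG34040 went from 0.887 ± 0.119 to 195 ± 1.91 CPM and had a log2 fold change of 7.77 (SE 0.0724). CG12766, an aldo-keto reductase gene, was at 3.38, 3.14 and 3.199 CPM in CK96h and 125, 119 and 124 CPM in T96h (log2 fold change 5.24, adjusted p = 1.73e-27). GstD5 and GstD2, glutathione S-transferase genes, had log2 fold changes of 4.78 (SE 0.09501) and 4.49 (SE 0.108). Cht4, a chitinase gene, rose from 4.02 ± 0.4097 to 63.9 ± 2.35 CPM (log2 fold change 3.98, adjusted p = 2.17e-24). The other members were CG15263, CG12224, CG45061, CG11425, CG14245 and CG31272 and the 3 genes that recur, with log2 fold changes of 3.91 to 5.67.

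Each list is described by the members called and by its median, with no test of the list. DESeq2 gave the same counts of called members as edgeR in 67 of 68 lists, and no called member in any of the 17 lists in which edgeR called none. In those 17 lists the counts by an unadjusted p under 0.05 were those by adjusted p, with 1 more higher gene among neuron markers.

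The families of detoxification are described next, with more members called higher than lower in 3 of the 4. Called shares were 25.7% of glutathione S-transferases, 23.9% of cytochrome P450s, 28.1% of UDP-glycosyltransferases and 0% of alpha-esterases, against 11.1% of all genes. Over all genes 3.97% were called higher and 7.15% lower. Of 35 glutathione S-transferases, enzymes that attach glutathione to reactive molecules, 9 were called higher and 0 lower, with a median log2 fold change of 0.78 against -0.02 over all genes. GstE1 was at 42.9, 42.9 and 40.9 CPM in CK96h and 455, 459.9 and 462 CPM in T96h, more than any control library by a wide margin (log2 fold change 3.44, adjusted p = 1.58e-28). GstE7 rose by 2.37 on the log2 scale (adjusted p = 4.08e-23). Summed over the family, the libraries held 2098, 2109 and 1989 CPM in CK96h and 4614, 4670.0 and 4689.9 CPM in T96h. Of 71 cytochrome P450s, 13 were higher and 4 lower (median 0.29). Cyp6d5 was at 192, 195 and 193 CPM in CK96h and 1153, 1150.2 and 1177 CPM in T96h, with no overlap (log2 fold change 2.58, adjusted p = 2.28e-26). Cyp309a1 (3.63), Cyp6d2 (2.99) and Cyp9b2 (2.83) had the largest log2 fold changes of the family. The 4 lower members were Cyp4d21, Cyp313a1, Cyp18a1 and Cyp304a1, from -3.76 to -1.52, and are named after their values were seen. UDP-glycosyltransferases, which attach sugars to small molecules, were divided. Of 32 tested, 5 were higher and 4 lower (median 0.39). Ugt35C1 rose from 67.7 ± 1.44 to 239 ± 4.62 CPM (log2 fold change 1.82) while Ugt50B3 fell from 54.8 ± 2.42 to 7.87 ± 0.782 CPM (log2 fold change -2.798, adjusted p = 1.5e-20). None of the 10 alpha-esterases was called (median 0.28), though 5 were higher and 4 lower by adjusted p alone in the edgeR fit. Of 6 aldo-keto reductases and sorbitol dehydrogenases, which interconvert sugars and sugar alcohols, CG12766 and CG10638 (log2 fold change 1.72, adjusted p = 6.98e-20) were higher and none lower.

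**Figure D3:**
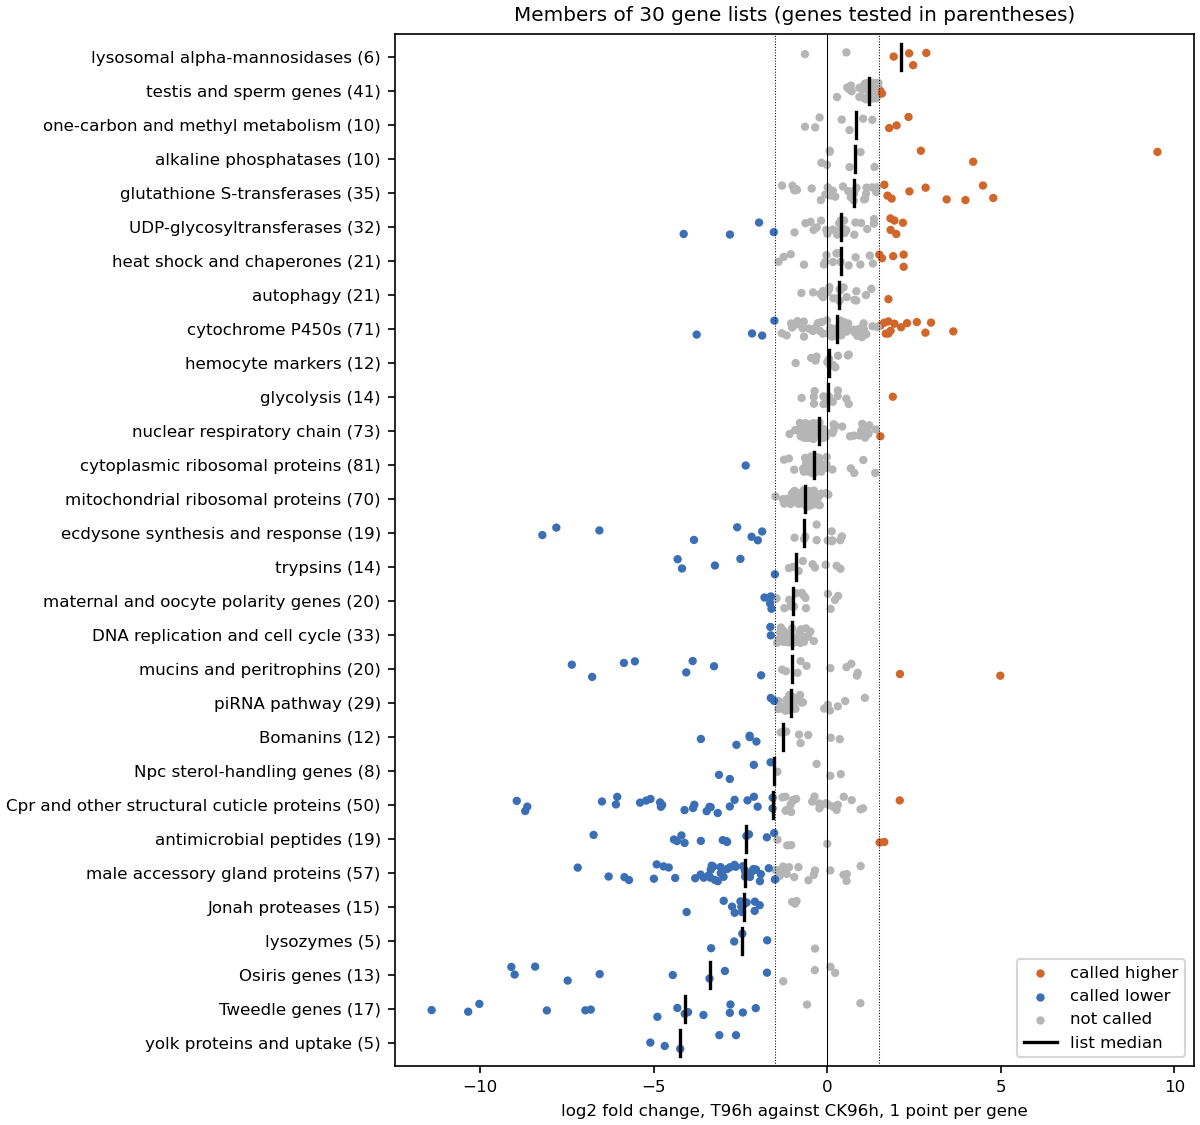
Log2 fold change at 96 h of the members of 30 gene lists (horizontal axis), ordered by the list median (black bar), with 1 point per gene tested. Yolk, Tweedle, Osiris, lysozyme and Jonah lists lie furthest to the left with medians of -4.23 to -2.40, the alpha-mannosidases furthest to the right at 2.14, and dotted lines mark the fold criterion of 1.5.

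Genes of glycan and starch breakdown other than the maltases held members that rose. Lysosomal alpha-mannosidases trim mannose from glycans, and 4 of the 6 were called higher and none lower (median 2.14). LManVI was at 51.8, 49.3 and 47.1 CPM in CK96h and 282, 275 and 267 CPM in T96h (log2 fold change 2.48, adjusted p = 5.42e-23), and LManIII, LManIV and LManV had log2 fold changes of 2.86, 2.36 and 1.92. These 4 genes are neighbours on chromosome arm 2L (8765273 to 8781252, assembly dm6). Of 10 alkaline phosphatases, enzymes of brush borders that release phosphate, 3 were higher and none lower (median 0.804). Alp4 was at 170.3, 171 and 159 CPM in CK96h and 1085, 1107 and 1061 CPM in T96h (log2 fold change 2.699, adjusted p = 1.24e-25), and Alp7 was at no more than 1.97 CPM in any library (log2 fold change 4.205). Among amylases, which cut starch, Amyrel rose from 0.8201 ± 0.185 to 9.89 ± 0.3604 CPM (log2 fold change 3.57, adjusted p = 1.24e-14). Amy-p and Amy-d had log2 fold changes of 0.66 and 0.75, below the fold criterion, and as near-identical copies their counts cannot be told apart with certainty. Glut3 was the 1 called gene of 10 sugar transporters (log2 fold change 1.77, adjusted p = 1.15e-12). It is a low transcript, at 4.77, 3.899 and 4.88 CPM in CK96h and 15.4, 16.8 and 14.2 CPM in T96h. Tret1-1, the trehalose transporter gene, was at 191, 191 and 182 CPM in CK96h and 365, 369.8 and 358 CPM in T96h (log2 fold change 0.95, adjusted p = 6.91e-18).

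In the lists of core energy metabolism, each of 15 genes or fewer, 0% to 14.3% of the genes were called, against 11.1% of all genes. Of 14 glycolysis genes only Ldh, lactate dehydrogenase, was called. It was at 28.4, 25.02 and 29.3 CPM in CK96h and 102, 103 and 102 CPM in T96h (log2 fold change 1.89, adjusted p = 1.06e-20), and the list median was 0.02. None of 8 genes of glycogen, trehalose and glucose output was called (median 0.21, with 4 higher and 1 lower by adjusted p alone in edgeR). Of 14 genes of glycerol metabolism and aquaglyceroporins, Gpo2, a mitochondrial glycerol-3-phosphate dehydrogenase gene, was higher (1.51) and bib, which encodes a channel protein of the aquaporin family, was lower (-1.69). The call of Gpo2 lies at the criterion and was lost without CK96h replicate 3 or T96h replicate 2 (1.48 in both cases), and without CK96h replicate 2, where it fell just short. SREBP, the transcription factor that controls fatty acid synthesis, was the 1 called gene of 15 in its list. Its transcripts were at 232, 229.8 and 228 CPM in CK96h and 689, 679 and 655 CPM in T96h (log2 fold change 1.55, adjusted p = 1.74e-21). Desat1, a desaturase gene, and Men, malic enzyme, had log2 fold changes of 0.88 and 1.21 (adjusted p = 1.24e-15 and 2.13e-19), under the criterion. None of 15 genes of beta-oxidation was called (median -0.24, with 5 higher and 8 lower by adjusted p alone in edgeR).

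Of 13 genes of lipid storage, lipolysis and lipoproteins, 3 were called lower and 1 higher (median -0.03), and by adjusted p alone in edgeR 6 were higher and 6 lower. apolpp, the apolipoprotein of the hemolymph, was at 2060.2, 2198 and 2223 CPM in CK96h and 214, 218 and 206 CPM in T96h. No control library came near the erythritol libraries (log2 fold change -3.34, SE 0.0641, adjusted p = 3.84e-24). Lsd-1 and Jabba, which encode proteins of the lipid droplet surface, had log2 fold changes of -2.33 and -1.76 (adjusted p = 1.68e-23 and 5.47e-23), and Jabba was at 592, 569 and 558 CPM in CK96h and 171, 168 and 169 CPM in T96h. Lip3, a lipase gene, rose from near 0, 0.0497, 0.101 and 0.0432 CPM in CK96h and 2.11, 2.87 and 2.89 CPM in T96h (log2 fold change 5.24).

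One-carbon and nucleotide metabolism held genes that rose. Nmdmc encodes a mitochondrial folate enzyme and was at 30.2, 29.2 and 28.1 CPM in CK96h and 147, 146 and 151 CPM in T96h (log2 fold change 2.34, adjusted p = 9.68e-24). Gnmt and Sardh, which make and break down sarcosine, had log2 fold changes of 1.79 and 2.001. These were the 3 genes called among 10 of the list (median 0.84). Of 10 genes of purine and urate metabolism, Pfas, an enzyme of purine synthesis, was higher (from 175 ± 8.32 to 547 ± 7.51 CPM, log2 fold change 1.64) and Uro, urate oxidase of the Malpighian tubule, was lower (from 62.5 ± 3.92 to 20.1 ± 0.867 CPM, log2 fold change -1.63). No gene of 15 of amino acid breakdown was called, though 10 were higher and 1 lower by adjusted p alone in edgeR (median 0.52).

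Among secreted proteases of the gut the Jonah genes were lower throughout, the trypsins were not, and 5 of the 10 largest losses in CPM were of protease genes. CG12374, a carboxypeptidase family gene, was at 8677, 8598 and 6972 CPM in CK96h and 317, 319 and 314 CPM in T96h. It was the largest loss of any called gene (log2 fold change -4.67, SE 0.0697, adjusted p = 2.2e-26). Jonah genes encode serine proteases of the midgut, and of 15 tested 12 were called lower and the other 3 were lower by adjusted p alone (median -2.396). Jon65Aiii was at 3412, 3352 and 2839 CPM in CK96h and 610.1, 606 and 608 CPM in T96h, with no overlap (log2 fold change -2.396, adjusted p = 3.36e-21). Jon65Aiv had a log2 fold change of -2.98 and Jon99Ciii one of -2.09, and Jon65Aiii, Jon65Aiv and yip7, another serine protease gene (from 4182 ± 511 to 1007 ± 7.197 CPM), lie in 1 run of adjacent called genes on arm 3L (6035216 to 6051690). Summed over the Jonah list, the libraries held 14029, 13542 and 11822 CPM in CK96h and 3033, 2983 and 2991 CPM in T96h. Of 14 trypsins 5 were called lower and none higher (median -0.901), and by adjusted p alone in edgeR 10 were lower and 2 higher, the highest at 0.38. epsilonTry was at 1032, 1017 and 921 CPM in CK96h and 102, 104 and 111 CPM in T96h (log2 fold change -3.23), thetaTry had a log2 fold change of -2.497 and gammaTry one of -4.305, while the call of zetaTry (-1.504) lies at the criterion. gammaTry and deltaTry are close copies in 1 cluster, so reads may be shared between them.

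Lysozyme genes and part of the genes that handle sterols were lower too. The 4 lysozyme genes that lie side by side on arm 3L (1207371 to 1213406), LysB, LysC, LysD and LysE, had log2 fold changes of -2.68, -1.73, -2.44 and -3.34, out of 5 lysozymes tested. LysD was at 583, 549 and 453 CPM in CK96h and 94.2, 101 and 96.6 CPM in T96h (adjusted p = 1.33e-21). These are near-identical copies whose separate values are uncertain. The sum over all 7 lysozyme genes of the count table, tested or not, went from 1172 ± 99.9 to 376 ± 1.88 CPM. Of 8 Npc genes, which handle sterols, 4 were called lower (median -1.53), and by adjusted p alone in edgeR 6 were lower and 2 higher. Npc1b, needed for sterol uptake by the midgut, was at 28.99, 27.9 and 29.7 CPM in CK96h and 6.98, 7.01 and 6.07 CPM in T96h (log2 fold change -2.11, adjusted p = 2.64e-17), and Npc2d, Npc2h and Npc2f had log2 fold changes of -3.12, -2.802 and -1.63. Mucins and peritrophins, which line the gut and other epithelia, moved in both directions. Muc68Ca (4.99, named after its value was seen) and Mur18B were higher, and 8 of 20 were lower, among them Peritrophin-15a (from 136 ± 2.87 to 9.27 ± 0.776 CPM, log2 fold change -3.87) and Muc12Ea (-5.85). Markers of the Malpighian tubule had 1 called gene of 12, Uro, a share of 8.33% near the 11.1% called of all genes. By adjusted p alone in edgeR 7 were higher and 3 lower. The 12 markers summed to 538 ± 4.31 CPM in CK96h and 525 ± 3.503 CPM in T96h.

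Most immune peptides were lower in T96h, while the signalling genes upstream and the markers of blood cells were not called. Antimicrobial peptides are secreted by the fat body under the Toll and Imd pathways. Of 19 tested, 13 were called lower and 2 higher (median -2.32). Mtk, metchnikowin, was at 41.02, 47.1 and 46.9 CPM in CK96h and 0.328, 0.656 and 0.289 CPM in T96h. No erythritol library reached 1 CPM (log2 fold change -6.73, SE 0.149, adjusted p = 8.68e-23). DptB, a diptericin gene, was at 103, 99.8 and 102 CPM in CK96h and 5.01, 5.75 and 5.92 CPM in T96h (log2 fold change -4.195, adjusted p = 1.2e-24), and Dro, drosocin, and AttC, an attacin gene, had log2 fold changes of -4.41 and -4.104. The 2 that rose were AttD (1.65) and BaraB (1.51), named after their values were seen. Anp, CecA1, CecA2, CecC and CG43448 form a run of adjacent called genes on arm 3R (30209948 to 30237734), all lower and also named after their values were seen, with log2 fold changes of -4.32 to -2.24. Of 12 Bomanins, short peptides induced by Toll, 5 were lower and none higher (median -1.26), and BomBc3 went from 52.99 ± 1.06 to 4.25 ± 0.708 CPM (log2 fold change -3.64). PGRP-SB1, a secreted peptidoglycan-binding protein gene, fell from 58.7 ± 2.04 to 6.13 ± 0.634 CPM (log2 fold change -3.26, adjusted p = 6.41e-21), and PGRP-SC1a and PGRP-SC1b, which break down peptidoglycan in the gut, had log2 fold changes of -1.64 and -2.15. The call of PGRP-SC1a was lost without T96h replicate 1 (-1.39). These 3 were the called genes among 11 peptidoglycan recognition proteins tested (median 0.22). Across that list 6 were higher and 5 lower by adjusted p alone in edgeR. None of 23 genes of Toll and Imd signalling was called (median 0.13). By adjusted p alone in edgeR, 13 were higher and 5 lower. None of 12 hemocyte markers was called (range -0.91 to 0.62, 2 higher and 3 lower by adjusted p alone in edgeR). They summed to 579, 557 and 560.2 CPM in CK96h and 600.3, 592 and 599 CPM in T96h, and the plot of list sums shows that the antimicrobial peptides were also far lower in CK72h than in CK96h.

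**Figure D4:**
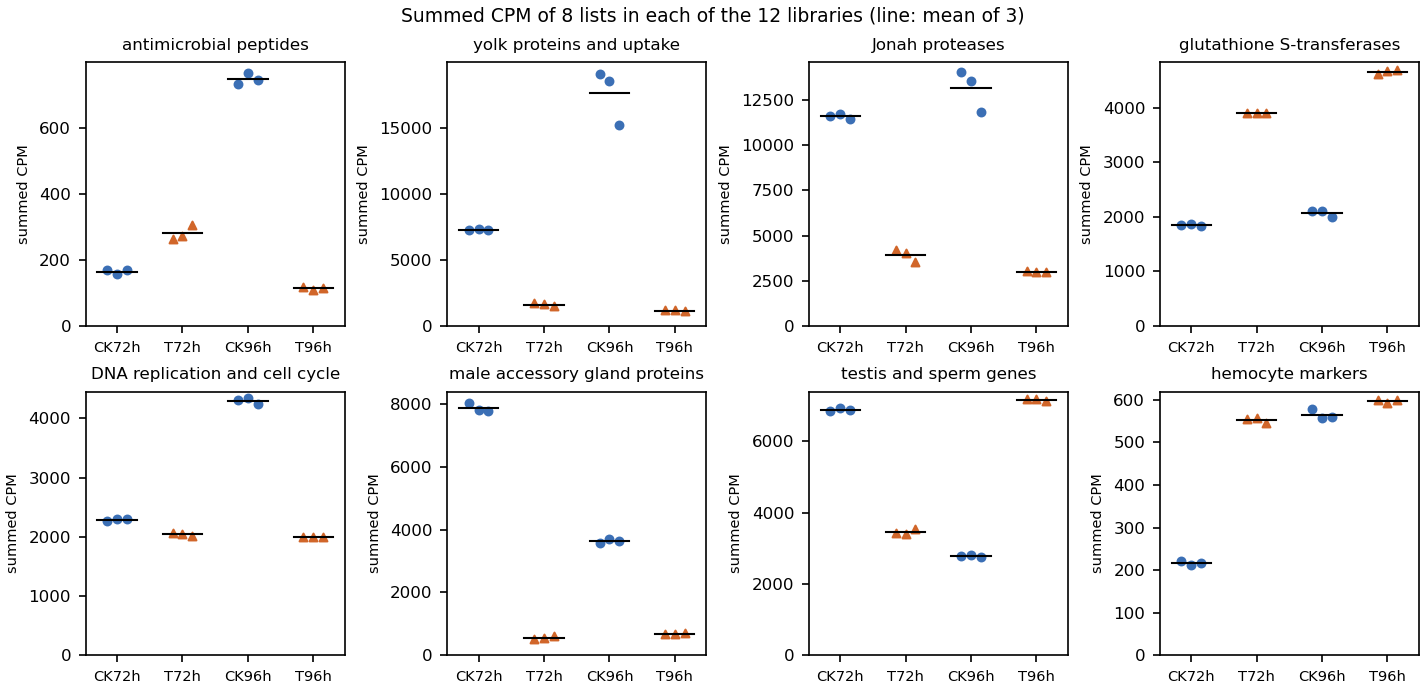
Summed CPM of the tested members of 8 lists (vertical axes, from 0) in each library of the 4 groups, with controls in blue circles, erythritol in orange triangles and the mean of 3 as a line. The antimicrobial peptides summed to 748 CPM in CK96h and 114 in T96h, against 165 in CK72h and 281 in T72h, while the testis genes summed to 2783 in CK96h and 7157 in T96h, against 6886 in CK72h and 3460 in T72h.

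The 3 yolk protein genes were among the 10 largest losses, with apolpp and dhd beside the protease genes. Yp1, Yp2 and Yp3 encode the yolk proteins, made in the female fat body and in follicle cells. Yp2 was at 8517, 8357 and 6502 CPM in CK96h and 235, 224 and 227 CPM in T96h. The third control library was lower than the other two but many times above any erythritol library (log2 fold change -5.09, SE 0.08903, adjusted p = 5.65e-25). Yp3 and Yp1 had log2 fold changes of -4.23 (SE 0.0609) and -3.104 (SE 0.0694). yl, the receptor that takes yolk into the oocyte, fell from 1043 ± 42.6 to 169 ± 6.77 CPM (log2 fold change -2.62), and fit, a female-enriched fat body gene, was at 53.7, 53.02 and 52.3 CPM in CK96h and 2.58, 1.82 and 1.78 CPM in T96h (log2 fold change -4.68). All 5 genes of this list were lower, and they summed to 17598 ± 2109 CPM in CK96h and 1163 ± 17.9 CPM in T96h.

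Genes of the ovary outside the eggshell and of the cell cycle are described next. Of 20 maternal and oocyte polarity genes, 4 were called lower and none higher (median -0.99). osk, oskar, which assembles the germ plasm, was at 429, 442 and 452 CPM in CK96h and 128, 128 and 124 CPM in T96h (log2 fold change -1.804, adjusted p = 1.68e-23). nanos, me31B and aub had log2 fold changes of -1.64, -1.602 and -1.62. Of 29 piRNA pathway genes, which silence transposons in the germ line, aub and shu (-1.53) were called lower (median -1.04), and by adjusted p alone in edgeR 23 were lower and 3 higher. The call of shu did not hold when libraries were scaled by their totals (-1.47) or by their upper quartile (-1.46). Of 33 genes of DNA replication and the cell cycle 2 were called, gnu (-1.64) and plu (-1.62), regulators of the cell cycles of the early embryo. The called shares of these lists, 6.9% and 6.06%, lay near the 7.15% called lower of all genes. All 33 replication genes were lower by adjusted p alone, with a median of -1.01 and a range of -1.64 to -0.38, against 41.2% of all genes. The list sum was 4307, 4338 and 4246 CPM in CK96h and 1993, 1994 and 1988 CPM in T96h. Single genes of other lists are also known from the ovary. dhd, a thioredoxin of the egg, was the 1 called gene of 15 antioxidant genes and fell from 1963 ± 164 to 674 ± 24.2 CPM (log2 fold change -1.54), and RpS5b, the germ line copy of a ribosomal protein, was at 969, 933 and 881 CPM in CK96h and 183, 183 and 182 CPM in T96h (log2 fold change -2.35, adjusted p = 2.87e-24). tj and slbo, transcription factors of follicle cells, had log2 fold changes of -2.001 and -1.51, the latter at the criterion.

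Ranked by fold, the 15 largest falls were of transcripts nearly absent from T96h. CG13084 was 3174-fold lower (6456 against 2 counts, counting interval 878 to 26217), a 95% interval for counting error alone. CG14309 was at 206, 210.1 and 198 CPM in CK96h and 0.0468, 0.151 and 0.144 CPM in T96h. dec, which the study describes as Dec-1, and yellow-g2 are known eggshell genes that the set-aside list did not take in. dec and yellow-g2 had log2 fold changes of -9.93 and -10.08. dec stood at 567, 559.8 and 547 CPM in CK96h and 0.468, 0.807 and 0.433 CPM in T96h. Obp19c, of the odorant-binding family, was at 109, 103 and 99.9 CPM in CK96h and 0.0937, 0.151 and 0.385 CPM in T96h (log2 fold change -8.91, adjusted p = 3.55e-26). The remaining falls of this rank included nur, CG32642, CG43673, CG13114, Femcoat and CG13159, at up to 213 CPM in CK96h and at most 0.252 CPM in T96h. The cuticle and Osiris genes TwdlM, Cpr65Ea, Osi7 and Osi15 completed the rank. Femcoat lies in a run of called genes on the X chromosome beside the set-aside eggshell genes CG15571 and CG15570. Whether more genes of this rank belong to the eggshell was not tested.

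Genes of cuticle formation and of epithelia that secrete it fell in blocks. Tweedle, Cpr and Osiris genes are known for their expression where a cuticle is being made, in embryos, larvae and pupae. Of 17 Tweedle genes 15 were lower and none higher, TwdlM being at least 326-fold lower (994 counts against 0), a bound that takes 3 counts over the group as the floor. Of 50 structural cuticle genes 26 were lower and 1 higher (median -1.57). Cpr49Ab was at 138, 140.1 and 125 CPM in CK96h and 30.7, 31.3 and 31.6 CPM in T96h (log2 fold change -2.11, adjusted p = 1.16e-21), and Cpr65Ea was 566-fold lower (576 against 1 counts, counting interval 101 to 22411). Another 48 genes of this list did not pass the filter on low counts. Of 13 Osiris genes 9 were lower (median -3.39), Osi6 at 28.1, 31.2 and 32.7 CPM in CK96h and 1.26, 1.87 and 1.11 CPM in T96h (log2 fold change -4.45). The neighbours on arm 3R (6299128 to 6341424), Osi14, Osi15, Osi17, Osi18, Osi19 and Osi20, formed 1 run of 6 adjacent called genes, and 6 genes of the Lcp65A cluster on arm 3L (6130386 to 6145393) another. These lists are of low abundance. With untested members included, the 26 Tweedle genes summed to 83.4 ± 0.902 CPM in CK96h and 11.3 ± 0.993 CPM in T96h. The 22 Osiris genes summed to 93.4 ± 5.21 and 8.01 ± 0.371 CPM in the same way. Ecdysone triggers cuticle formation, and of 19 genes of its synthesis and response 8 were lower and none higher. ImpE2 was 401-fold lower (408 against 1 counts, counting interval 71.6 to 15885) and spo, an enzyme of ecdysone synthesis, was 304-fold lower (309 against 1 counts, counting interval 54.1 to 12040.2). ImpL1 and Hr4, genes that ecdysone induces, had log2 fold changes of -6.56 and -1.99.

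Runs of adjacent genes called in 1 direction were mostly falls. In the order of the annotation, 27 runs of at least 4 tested genes were lower (150 genes, the longest of 12) and 4 were higher (16 genes). These totals include set-aside genes. The higher run of Mal-A1 to Mal-A4 and the lower run of Cp18, Cp15, Cp19 and Cp16 hold no others. The lower runs with Cp36, Vm26Aa and CG15571 hold 5, 5 and 2 of them, in that order. A lower run of 9 genes spans the Enhancer of split complex on arm 3R (25999851 to 26038019), whose genes are direct targets of Notch signalling in neural and other patterning. It holds E(spl)mgamma-HLH, E(spl)mbeta-HLH, E(spl)m3-HLH and E(spl)m7-HLH, which encode repressors of the bHLH class, E(spl)malpha-BFM, E(spl)m2-BFM, E(spl)m4-BFM and E(spl)m6-BFM, which encode small Bearded-family proteins, and Kaz-m1. E(spl)m3-HLH was at 8.25, 10.3 and 8.82 CPM in CK96h and 1.69, 1.71 and 1.44 CPM in T96h, with no overlap (log2 fold change -2.49, SE 0.146, adjusted p = 4.61e-14). Kaz-m1 was at 48.9, 49.1 and 49.02 CPM in CK96h and 13.4, 15.7 and 13.6 CPM in T96h (log2 fold change -1.79). E(spl)mgamma-HLH was 52.1-fold lower (106 against 2 counts, counting interval 14.1 to 436) and E(spl)m6-BFM at least 12.5-fold lower (38 counts against 0). The calls of E(spl)m2-BFM (-1.84) and E(spl)mbeta-HLH (-1.55) were lost without T96h replicate 3 (-1.46) and without T96h replicate 1 (-1.47). Another cluster of Bearded-family genes on arm 3L (14943730 to 14976040), CG13465, BobA, Tom, Brd and Ocho, was also called lower and is named after its values were seen. Against T96h libraries with no count, CG13465 was at least 15.7-fold lower (48 counts against 0), BobA at least 23.3-fold lower (71 counts against 0) and Brd at least 19.01-fold lower (58 counts against 0). Tom was 153-fold lower (312 against 2 counts, counting interval 42.1 to 1272) and Ocho 37.9-fold lower (77 against 2 counts, counting interval 10.1 to 318). Tom was at 4.92, 5.37 and 4.63 CPM in CK96h and 0.0468, 0.0504 and 0 CPM in T96h and Brd at 0.746, 0.912 and 1.08 CPM in CK96h and 0, 0 and 0 CPM in T96h. The longest run, 12 genes on arm 3L (13282393 to 13303946), holds SP, the sex peptide of seminal fluid (-3.64), Sfp70A4, 35.4-fold lower (72 against 2 counts, counting interval 9.45 to 298), CG42481, CG43147 and 8 long non-coding RNA genes. A run of 10 genes on arm 3L (16264713 to 16288422), CG13051 to CG13046, held CG13047 and CG13066 with no count in T96h, CG13047 being at least 30.5-fold lower (93 counts against 0), and the smallest fall was that of CG4950 (-1.73). Overlapping and antisense genes in such runs may share counts, since the strand setting of the counting was not given in the sources used here.

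Genes of the male tract split by organ. Accessory gland proteins, the main part of seminal fluid, were lower in 39 of 57 genes and higher in none (median -2.37). Acp36DE, which has a role in sperm storage, was at 362, 358 and 384 CPM in CK96h and 60.1, 58.1 and 59.8 CPM in T96h (log2 fold change -2.63, adjusted p = 5.22e-26). Acp26Aa, ovulin, fell from 87.8 ± 5.62 to 1.11 ± 0.182 CPM (log2 fold change -6.29), and Sfp87B and Ebp, a protein of the mating plug, had log2 fold changes of -4.71 and -3.23. Of 26 serpins, protease inhibitors that include seminal fluid proteins, 7 were lower, among them Spn77Bc (from 158 ± 1.43 to 6.35 ± 0.9999 CPM, log2 fold change -4.64), Spn77Bb (-3.65) and Spn28F (-3.42), and 1 was higher. Testis genes moved the other way. Of 41 testis and sperm genes 2 were called higher and none lower. By adjusted p alone 40 were higher (median 1.21, range 0.29 to 1.58), against 38.3% of all genes. S-Lap5, a leucyl aminopeptidase gene of sperm, was at 26.9, 24.2 and 25.9 CPM in CK96h and 78.5, 72.4 and 71.2 CPM in T96h (log2 fold change 1.53, adjusted p = 2.81e-18), and p-cup, expressed late in spermatid development, went from 3.68 ± 0.155 to 10.97 ± 1.21 CPM (log2 fold change 1.58). The list summed to 2789.8, 2802 and 2757 CPM in CK96h and 7172, 7174 and 7124 CPM in T96h. Among 19 genes of the Y chromosome tested 3 (15.8%) were called higher, against 3.97% of all genes. None was called lower, and the median was 1.16. The plot of list sums shows the organs side by side, and the part that the share of males in the pools has in these values was not tested.

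Few genes of large complexes found in every cell were called, and many passed the adjusted p alone with small values. Of 81 cytoplasmic ribosomal proteins RpS5b alone was called, although 72 were lower and 4 higher by adjusted p alone (median -0.38). Of 70 mitochondrial ribosomal proteins none was called and 68 were lower by adjusted p alone in edgeR, against 41.2% of all genes (median -0.62). The 73 nuclear genes of the respiratory chain fell into a pair of sets by name, a split made after the values were seen. The 16 copies with names ending in L, most of them known as testis forms, were higher by adjusted p in 15 cases (median 1.11, 1 called higher, ND-51L2 at 1.53). The other 57 were lower in 49 cases and higher in 6 (median -0.41, none called), for example ATPsynC at 1912, 1904 and 1725 CPM in CK96h and 858, 876 and 885 CPM in T96h (log2 fold change -1.08, adjusted p = 2.74e-17). Genes of the mitochondrial genome itself had a median of 0.03, and their libraries overlapped in 11 of 13 genes. None of 32 proteasome genes was called (median -0.12, 3 higher and 17 lower by adjusted p alone in edgeR). Of 28 genes of the vacuolar ATPase, Vha36-2 was called higher (from 10.3 ± 1.93 to 29.9 ± 0.552 CPM, log2 fold change 1.54), a call lost without CK96h replicate 3 (1.43), while Vha16-1 and Vha68-2 had log2 fold changes of -0.07 and -0.09.

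**Figure D5:**
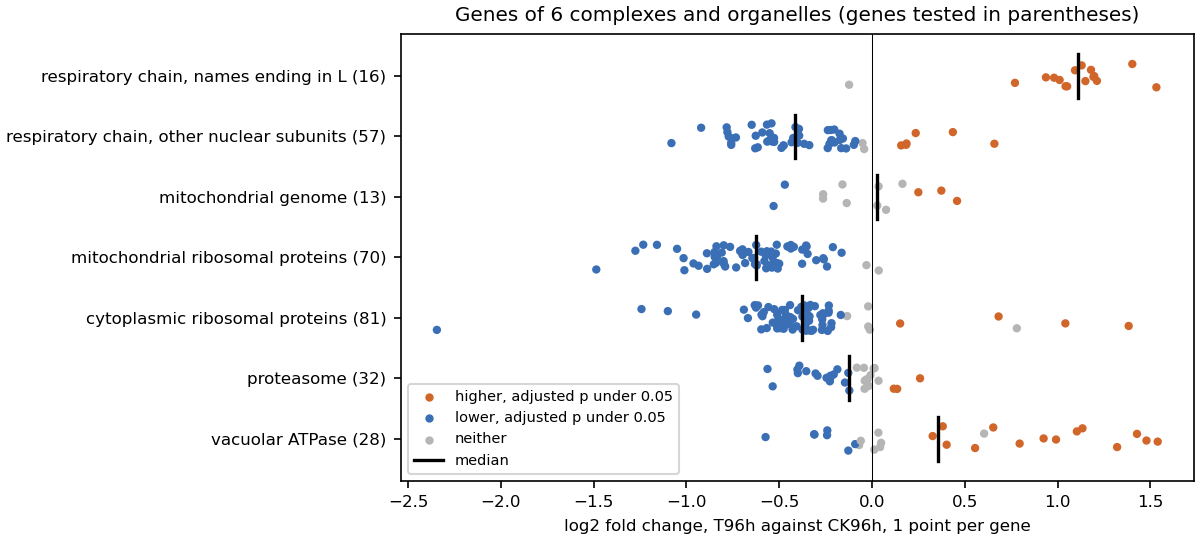
Log2 fold change at 96 h (horizontal axis) of the genes of large complexes and organelles, with 1 point per gene, coloured by adjusted p alone, and a black bar at the median. The 16 respiratory chain genes with names ending in L lie around 1.11, apart from the other 57 subunits around -0.41.

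Among genes of stress and nutrients, 5 of 21 heat shock and chaperone genes (23.8%) were called higher and none lower (median 0.39), against 3.97% of all genes called higher. By adjusted p alone in edgeR 13 were higher and 3 lower. The list sum was lower in T96h, at 7703 ± 64.0 CPM against 9406 ± 389 CPM in CK96h. stv, starvin, a co-chaperone, was at 55.1, 52.2 and 54.3 CPM in CK96h and 166, 161 and 157 CPM in T96h (log2 fold change 1.58, adjusted p = 2.79e-21). Hsp70Bb and Hsp70Bbb had log2 fold changes of 2.204 and 2.204 at no more than 5.95 CPM in any library, and are near-identical copies. Cat, catalase, had one of 1.19 (SE 0.0437), and Fer1HCH, a ferritin chain gene, went from 946 ± 45.4 to 2193 ± 17.9 CPM (log2 fold change 1.21), both under the criterion. None of 14 genes of endoplasmic reticulum folding and stress was called, with 8 higher and 3 lower by adjusted p alone in edgeR. Thor, the translation inhibitor that FOXO and ATF4 induce, was at 284, 277 and 261 CPM in CK96h and 618, 606 and 626 CPM in T96h (log2 fold change 1.17, adjusted p = 2.9e-19), and none of 13 genes of FOXO, TOR and REPTOR signalling was called, with 6 higher and 4 lower by adjusted p alone in edgeR. Ilp4 (-2.85) and Ilp5 (-1.85), insulin-like peptide genes, were called lower at low abundance. Ilp5 was at 1.34, 1.47 and 1.25 CPM in CK96h and 0.422, 0.151 and 0.5298 CPM in T96h, and its call was lost without T96h replicate 2 (-1.497). They were the 2 called genes of 11 in the list of insulin-like peptides, Akh and binding proteins (median -0.71). Across that list 10 were lower and 1 higher by adjusted p alone in edgeR. Of 21 autophagy genes Atg18b rose from 23.9 ± 0.346 to 81.2 ± 0.749 CPM (log2 fold change 1.77). ref(2)P, the cargo receptor p62 of the fly, was at 388, 387 and 378 CPM in CK96h and 917, 946 and 924 CPM in T96h (log2 fold change 1.27) and Atg8a had a log2 fold change of 0.84. Jheh1, a juvenile hormone epoxide hydrolase gene, rose from 214 ± 5.81 to 799.6 ± 12.3 CPM (log2 fold change 1.901) and Jhe, juvenile hormone esterase, fell from 7.29 ± 0.672 to 1.71 ± 0.231 CPM (log2 fold change -2.09). The clock gene tim, timeless, was at 64.9, 61.6 and 59.7 CPM in CK96h and 191, 191 and 186 CPM in T96h (log2 fold change 1.61, adjusted p = 1.59e-21), with cry at 1.305. None of 12 metallothionein and iron genes and none of 9 lysosomal hydrolases was called (medians 0.39 and 0.02, with 7 higher and 3 lower and with 4 higher and 3 lower by adjusted p alone in edgeR).

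Markers of neurons and eye held no called gene, and the called share of muscle genes, 8.33%, lay near the 11.1% of all genes. None of 10 neuron markers was called (range -0.52 to 0.44, 4 higher and 4 lower by adjusted p alone in edgeR), and they summed to 312 ± 12.6 CPM in CK96h and 328 ± 4.28 CPM in T96h. ninaE, the main rhodopsin gene, was at 2143, 2090.1 and 2050.5 CPM in CK96h and 1645, 1684 and 1695 CPM in T96h (log2 fold change -0.32), and none of 17 phototransduction genes was called, with 4 higher and 9 lower by adjusted p alone in edgeR. Of 24 sarcomere genes 1 was called higher and 1 lower, and 15 were higher and 4 lower by adjusted p alone in edgeR (median 0.26). They summed to 6034 ± 30.3 CPM in CK96h and 6917 ± 14.9 CPM in T96h. Act88F, the actin of indirect flight muscle, was called higher at 40.4, 38.7 and 39.1 CPM in CK96h and 250.4, 246 and 243 CPM in T96h (log2 fold change 2.65, adjusted p = 2.26e-25). fln, flightin, was lower at about 1 CPM (-1.52), and that call was lost without CK96h replicate 2 or 3 (-1.47 and -1.46) or T96h replicate 1 or 2 (-1.35 and -1.49). Cyp4g1 of oenocytes, which make cuticular hydrocarbons, was at 8658, 8837 and 7660.5 CPM in CK96h and 11264, 11574 and 11726 CPM in T96h (log2 fold change 0.46). Of 29 odorant-binding protein genes 7 (24.1%) were called lower and none higher (median -0.87), against 7.15% of all genes called lower. Of 764 long non-coding RNA genes 77 were higher and 86 lower (median 0.56), a called share of 21.3% against 11.1% of all genes. Among these, lncRNA:CR44138 was at 5.17, 4.66 and 5.27 CPM in CK96h and 40.3, 40.2 and 40.7 CPM in T96h (log2 fold change 3.0). With a filter of 1 CPM in 3 libraries, 40 of them were higher.

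The 96 h comparison differed from that at 72 h in many genes. The 72 h groups had their own controls, and the difference between the effects passed the adjusted p and a size of 1.5 on the log2 scale in 2804 genes (21.3% of those tested). Of the 523 genes higher at 96 h, 238 passed this test, 226 with the larger value at 96 h, and of the 942 lower genes 229 passed, 163 with the lower value at 96 h. Over all 2804 genes, the log2 fold change was higher at 96 h in 2498 and lower in 306. Long non-coding RNA genes gave 363 of the 2804, and 347 of these had the higher value at 96 h. Their list median was -0.98 at 72 h and 0.56 at 96 h, and the control median was -1.01 between the times. Antimicrobial peptides were among the 2804 in 14 of 19 cases. Mtk had log2 fold changes of 0.901 at 72 h and -6.73 at 96 h (difference -7.63, adjusted p = 6.09e-19). The control level moved in this list, with a median of 2.43 for CK96h against CK72h, and in the Bomanins, where 10 of 12 passed the test and the control median was 1.73. Testis genes differed in 40 of 41 cases, from a median of -1.03 at 72 h to 1.21 at 96 h, and the control median was -1.28 between the times. Alpha-mannosidases differed in 5 of 6 cases, with smaller values at 96 h, such as LManV at 5.36 and 1.92, and their control median was 2.08 between the times. Yp2 fell by more at 96 h (-5.09) than at 72 h (-3.11, difference -1.98, adjusted p = 1.85e-14), and its control level was higher at 96 h. Phototransduction genes had a median of -1.68 at 72 h and -0.14 at 96 h, and 10 of 17 passed the test of the difference. Few genes passed it among the Jonah proteases (1 of 15) and the glutathione S-transferases (1 of 35), and among 33 replication genes none did, although their median was -0.12 at 72 h.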

How the data were processed

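RNA with poly(A) tails was sequenced from whole bodies of Drosophila melanogaster in 12 libraries, 3 in each of 4 groups. The authors trimmed the reads and aligned them to the fly genome with HISAT2, and the submitters' processing notes also name CASAVA 1.8. The deposited values are raw read counts per gene, and the authors applied no scaling to them. Which tool counted reads, and whether by strand, is not given in the sources used here. Counts of overlapping, antisense and near-identical genes are therefore uncertain. The study describes biological replicates of pooled flies. The labels do not say that replicates were separate pools, and p-values would otherwise measure only the spread between these libraries.

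The table held 17707 genes, 17558 with FlyBase identifiers and 149 predicted models, and 1537 had no count in any library. Symbols and positions came from the Ensembl annotation of dm6, the assembly of the authors' genome, which named 17252 identifiers. A further 306 had no symbol and could not be placed in lists. Models were fitted in R 4.3.3 with edgeR 4.0.16, which uses limma 3.58.1. Low genes were removed by edgeR's filter on the groups, libraries were scaled by TMM, and the 4 groups were fitted in 1 quasi-likelihood model without a replicate term. The common dispersion was 0.00165, a coefficient of variation of 4.06%. SE is the standard error of the log2 fold change from this fit, and it can lie below counting error where a group has few counts. Adjustment was by Benjamini-Hochberg over all 13179 genes. Where T96h had no count, the fold is a bound with 3 counts over the group as the floor, and where it had 1 to 3 counts the ratio has an exact interval. On simulated data for the 96 h comparison, 100% of 67 genes shifted by 2 and of 66 shifted by 3 on the log2 scale were called, 100% of 67 shifted by 1 passed the adjusted p, and 0% of 12864 unshifted genes were called. Shifted genes were drawn only from well-counted genes, and every simulated gene had the common dispersion. Far fewer genes were shifted than passed the adjusted p in the data. These shares therefore do not cover genes with few counts or with a wider spread.

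The 68 gene lists and the rule for named genes were chosen with earlier results of these data known. The rule names the 15 largest rises and 15 largest falls (called, mean log2 CPM of at least 2, no overlap), the 10 largest gains and losses in CPM, up to 4 called members of each list or, with fewer than 2 called, its 2 highest members, and the members of the 8 longest runs of adjacent called genes. Alternatives were other scaling factors, other filters, DESeq2 1.42.0, the 96 h libraries alone, a replicate block, removal of the mitochondrial genome and removal of each library. A planned search of promoters for motifs was not done, since no sequence was used here.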

Additional observations from a re-analysis of the deposited data

Results flagged for a closer look

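These results were set apart because the effect at 96 h differed from that at 72 h by the test of the difference itself in the edgeR fit (adjusted p under 0.05 and a size of at least 1.5), which 2804 genes passed. The cause was not tested.

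Among the largest rises and gains, the log2 fold change of Alp8 was larger at 96 h by 4.22, that of CG15263 by 4.14, that of FBgn0038762 by 2.46 and that of tobi by 1.64. FBgn0038762 was lower at 72 h (-0.87) and higher at 96 h (1.59). The level of CG15263 in control flies was itself lower at 96 h than at 72 h, by -4.20 on the log2 scale.

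Among the largest falls and losses, the difference was -9.999 for CG13084, -8.91 for CG32642 and -8.704 for Femcoat. These 3 genes were near -1.05 to -1.39 at 72 h and nearly without counts in T96h. The difference was -2.38 for Yp3, -2.18 for yellow-g2, -2.14 for Obp19c, -1.98 for Yp2, -1.68 for dec and -1.56 for apolpp.

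Lists in which most members passed this test were the following, 14 of 19 antimicrobial peptides, 10 of 12 Bomanins, 40 of 41 testis and sperm genes, 10 of 17 phototransduction genes, 5 of 6 alpha-mannosidases and 3 of 5 genes of yolk and its uptake. Groups of 3 libraries are too small for a test of single outlying samples.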

How the results depend on the processing

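The counts of called genes kept within 1.5 times under every alternative run. The 523 higher genes became 466 with at least 1 CPM in 3 libraries and 697 with upper-quartile factors, and the 942 lower genes became 826 with that filter and 1094 with no filter on low counts. Without single libraries of 96 h the counts were 523 to 594 higher and 960 to 984 lower. The 2804 genes whose effect differed between the times became 2895 with DESeq2, 3128 with library totals, and 2813 to 2948 without single libraries. Library totals and upper-quartile factors moved the median of all genes from -0.02 to 0.04 and 0.06. Of 289 named genes 234 were called, none turned its direction while called, and 13 lost their call in at least 1 alternative. These were slbo, Gpo2, Ilp5, ND-51L2, PGRP-SC1a, shu, fln, S-Lap5, zetaTry, Vha36-2, dhd, E(spl)m2-BFM and E(spl)mbeta-HLH. The 13 had absolute log2 fold changes between 1.5 and 1.85. The 77 higher long non-coding RNA genes became 40 with at least 1 CPM in 3 libraries, and the 86 lower ones became 50 with only the 96 h libraries, where fewer low genes were tested. The median of the mitochondrial genome turned from 0.03 to -0.11 without CK96h replicate 1.

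Labels number the replicates 1 to 3 in each group. Deviations of same-numbered libraries from their group means had correlations of 0.0497, 0.0121 and 0.0101, and not every library correlated best with its own number. The labels do not say what the numbers stand for. Deviations from means of 3 libraries cannot show whether same-numbered libraries were handled together. A replicate block in the fit of the 96 h libraries gave 492 higher and 858 lower genes, against 492 and 856 in that fit without it.

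Depth limits the low transcripts. A gene with no count in T96h gives a bound only, and the Tweedle, Osiris, cuticle and Enhancer of split values rest on few counts there. Precision of the others rests on 3 libraries a group that lay unusually close together. If they came from 1 pool, p-values do not cover the spread between pools. Sex of the flies was not given, and lists of male and female organs cannot be told apart from the makeup of the pools.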
